A study of Mus musculus with 10 samples.

Results

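Cd24a, Prom1, Ncam1, Alcam, Cd44, Thy1, Ly6a and Nt5e encode cell-surface proteins that are widely used to sort renal progenitors and mesenchymal cells by flow cytometry. They were chosen by gene name among the non-control probes of a mouse expression array, which gave 14 probes of 8 genes, out of 55681 probes and 34607 names. The study measured total RNA on 10 single-colour Agilent arrays, in 5 groups of 2 arrays each. All animals were Six2-GFP transgenic mice on a C57BL6J/ICR background, which carry a green fluorescent reporter of Six2, a transcription factor of nephron progenitors; how the reporter was built is not given in the sources used here. E11.5 progenitors were GFP-positive cells from embryos at E11.5 (days of gestation). P0 progenitors and P0 non-progenitors were the GFP-positive and GFP-negative cells taken at birth, although the names of the deposited data give a late embryonic stage in place of birth. The 8-day culture and the 19-day culture were E11.5 GFP-positive cells grown in conditioned medium for 8 and 19 days. Whether cultured cells were sorted again before RNA was taken is not given in the sources used here. Nor do they say whether the 2 arrays of a group came from separate litters or cultures, so that p-values measure only the spread between these arrays.

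In the developing kidney, Six2-expressing cells of the cap mesenchyme either renew themselves or turn into the epithelium of the nephron, while stroma and endothelium come from other lineages. The proteins considered here mark different steps and lineages of that system. CD24 and prominin-1 (CD133) together mark progenitor-like cells of the adult human kidney, NCAM1 marks human fetal nephron progenitors and early nephron structures, and THY1 (CD90), CD44, ALCAM (CD166), NT5E (CD73) and, in the mouse, LY6A (Sca-1) are standard markers of cultured mesenchymal stromal cells. LY6A is also made by endothelium. The arrays measure RNA, and not the protein on the surface that an antibody would detect.

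The value used throughout is the log2 intensity of a probe minus the 75th percentile of its own array, so that 0 is the level of that percentile and 1 unit is a 2-fold difference. Levels of different probes were not set against each other. The 75th percentile ran from 220.4 to 340.6 intensity units, 60.4% to 69.8% of spots were well above background, and no spot was saturated. Six2 was 193-fold higher in P0 progenitors than in the GFP-negative P0 cells (log2 change 7.59 ± 0.71, standard error; limma adjusted p = 0.00172) in cells gated on its reporter. In the 19-day culture Six2 fell by 3.07 on the log2 scale against E11.5 progenitors (SE 0.71, limma adjusted p = 0.0252). Cited1, another nephron progenitor gene, fell by 3.26 there (SE 0.53, adjusted p = 0.00678). In that comparison 6 of 8 nephron progenitor markers were lower (3 with the slide as a block), against 16.8% of all genes called. All freshly sorted samples and 8-day culture replicate 1 were on slide 1, and 8-day culture replicate 2 and both 19-day arrays were on slide 2. Of the 14 probes, 11 passed the filter on low signal, which covered 7 of the 8 genes. Nt5e did not pass, and the Ncam1 probe at transcript base 4688 passed through the 19-day culture alone. The genes' replicates differed most in the 19-day culture, with a root mean square difference of 2.40 log2 units over these genes, against 1.59 in the 8-day culture, 0.572 in E11.5 progenitors, 0.439 in P0 progenitors and 0.270 in P0 non-progenitors.

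The probe sequences decide what part of each transcript was read, and for 3 of the genes the probes disagreed. Cd44 had 4 probes, all on the minus strand of chromosome 2 of mouse assembly mm9. Of these, 3 are shown, led by the probe at base 2614, because the probes gave different answers on whether Cd44 changed. Capitals in the first line mark a stop triplet at base 46 of the probe, counted in threes from the probe's base 1; the reading frame of the transcript was not used here.
Cd44 probe at transcript base 2614, chr2:102654278-102654337: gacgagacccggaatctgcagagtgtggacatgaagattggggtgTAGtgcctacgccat
Cd44 probe at transcript base 1777, first 30 bases, chr2:102677971-102678030: acagatttcttcgacccaatctcacatcca
Cd44 probe at transcript base 1965, first 30 bases, chr2:102672645-102672704: tacattacatggagagccggaagaagacga
The probe at base 5494, which represents the gene in the values below, shared at least 16 bases in a row with 27 probes of other names, the most of the 14 probes, with a longest run of 29. The probe at base 2614 shared a run of 16 bases with 1 probe of another name and the probe at base 1965 with 1, while the probe at base 1777 shared none.

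Ncam1 had 3 probes on the minus strand of chromosome 9, which are shown because the one at base 4688 moved apart from the others.
Ncam1 probe at transcript base 2012, first 30 bases, chr9:49351182-49351241: tggaaggcattgtcaccatcatgggcctga
Ncam1 probe at transcript base 4688, first 30 bases, chr9:49323381-49323440: ctgtgtattagtacagtccgtacaccatgt
Ncam1 probe at transcript base 6856, first 30 bases, chr9:49310320-49310379: actttttactgagtgaaacatcaacaccac
Prom1 had 2 probes on the minus strand of chromosome 5, and Thy1 and Ly6a had 1 each, on the plus strand of chromosome 9 and the minus strand of chromosome 15. These 4 are shown because the 2 Prom1 probes differed in what they showed between the gates, and because Thy1 and Ly6a were the genes called there.
Prom1 probe at transcript base 2436, first 30 bases, chr5:44397410-44397469: acgaagaagtttgggaaaacaatactaggc
Prom1 probe at transcript base 3686, first 30 bases, chr5:44384861-44384920: tgatgtgtgtcatcagcctgtcctgatgtt
Thy1 probe at transcript base 1663, first 30 bases, chr9:43856591-43856650: taataccaccactgctacagcatctcaccg
Ly6a probe at transcript base 665, first 30 bases, chr15:74825553-74825612: tatgagttatagaagctccaaggtgggagt
The probe of Cd24a lay at chr10:43303706-43303765 on the plus strand and that of Nt5e at chr9:88266616-88266675 on the plus strand. The Alcam probe covered 1878 bases of the minus strand, chr16:52268908-52270785, with 60 bases of sequence, so that it crosses a splice junction. Exon and UTR labels for the probes were not used here. Apart from Cd44, the Prom1 probe at base 3686 was the only one of the 14 that shared 16 or more bases in a row with probes of other names, 2 probes with a longest run of 17.

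**Figure D1:**
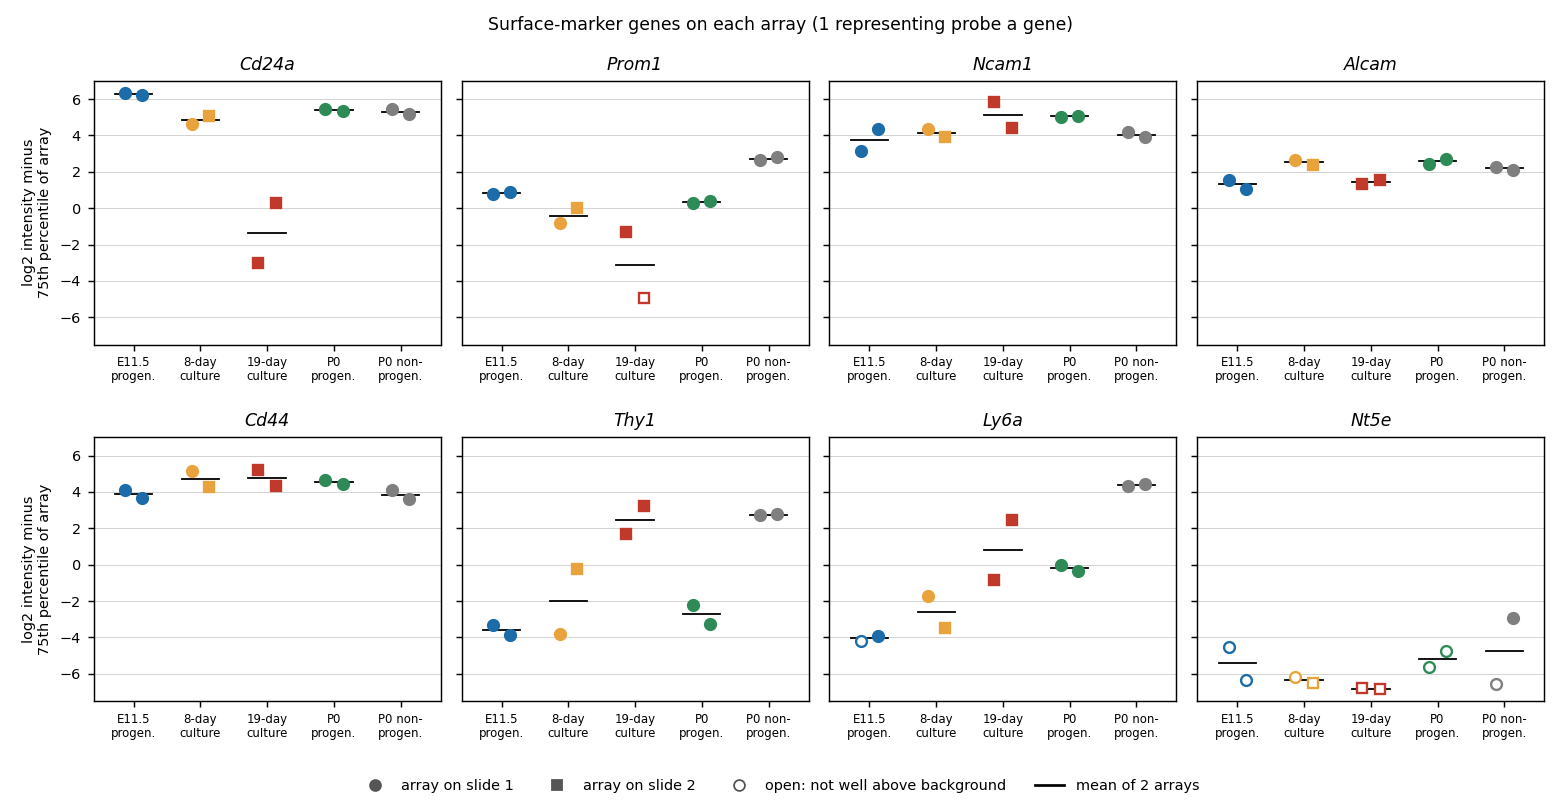
Level of each of the 8 genes on each of the 10 arrays, as log2 intensity minus the array's 75th percentile, by group, with the mean of 2 arrays as a line (open symbols: not well above background; squares: slide 2). Cd24a falls from 4.64 or more in every other group to -3.01 and 0.28 in the 19-day culture, Thy1 and Ly6a have their highest group means in P0 non-progenitors and in 19-day culture, and Nt5e is above background on 1 array.

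Cd24a encodes a small, heavily glycosylated protein held in the membrane by a lipid anchor. It read 6.36 and 6.24 in E11.5 progenitors, 5.45 and 5.37 in P0 progenitors, 5.43 and 5.19 in P0 non-progenitors, and 4.64 and 5.07 in the 8-day culture. It read -3.01 and 0.28 in the 19-day culture. The 19-day arrays lay far below all 8 others, the E11.5 arrays were the highest, and P0 progenitors overlapped P0 non-progenitors. In these bulk samples, fewer cells of a type and less RNA per cell cannot be told apart. Over all arrays Cd24a spanned 662-fold, the widest range of the 14 probes.

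Against E11.5 progenitors, Cd24a fell by 7.67 on the log2 scale in the 19-day culture (SE 0.87, 203-fold; limma adjusted p = 0.00169). Against the 8-day culture it fell by 6.22 (SE 0.87, 74.6-fold; limma adjusted p = 0.00728). The first of these calls was kept in 12 of 13 alternative fits and was lost in a fit of the compared groups alone (limma adjusted p = 0.0559). The second was kept in 12 of 14 and was lost in the fit of the compared groups alone (adjusted p = 0.0998) and on slide 2 arrays alone (adjusted p = 0.240). In the 8-day culture the change was -1.44 ± 0.87 (limma adjusted p = 0.420), and in P0 progenitors against E11.5 progenitors it was -0.89 ± 0.87 (adjusted p = 0.633). Between the gates at birth the difference was 0.09 ± 0.87 (95% interval -1.93 to 2.12, adjusted p = 0.971), so that Cd24a RNA was not detectably different between GFP-positive and GFP-negative cells.

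Prom1 encodes a membrane glycoprotein found on the protrusions of epithelial cells. With the probe at base 3686, which represents the gene, it read 2.63 and 2.79 in P0 non-progenitors, 0.77 and 0.88 in E11.5 progenitors, 0.26 and 0.40 in P0 progenitors, and -0.82 and 0.00 in the 8-day culture. The 19-day arrays read -1.33 and -4.92, the second not well above background. No 2 neighbouring groups in this order overlapped.

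Prom1 fell by 3.95 in the 19-day culture against E11.5 progenitors (SE 0.98, 15.4-fold; limma adjusted p = 0.0320). The call was lost without either of the E11.5 arrays (adjusted p = 0.0913 without replicate 1 and adjusted p = 0.0972 without replicate 2), with the slide as a block (adjusted p = 0.185) and in the compared groups alone (adjusted p = 0.175). The other probe, at base 2436, also read lower there: it was -3.23 and -3.47 in E11.5 progenitors and -5.75 and -5.59 in the 19-day culture, where neither array was well above background. Set against the lowest signal well above background, that probe was 2.63-fold lower in 19-day culture (limma adjusted p = 0.0372 with each probe fitted alone). Over 11 alternative fits its change ran from -3.30 to -0.75, and the call was lost without any 1 of its 4 arrays. The 8-day arrays read -6.01 and -5.03, again not well above background.

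At birth the 2 Prom1 probes differed in what they showed between the gates. The probe at base 3686 differed by -2.38 ± 0.98 on the log2 scale in P0 progenitors against the GFP-negative P0 cells, which did not pass ( limma adjusted p = 0.212). The probe at base 2436 read -2.49 and -0.98 in P0 progenitors and -1.24 and -0.85 in P0 non-progenitors, so that the groups overlapped. Against E11.5 progenitors, P0 progenitors differed by -0.49 with the first probe and by 1.62 with the second, and neither difference passed (adjusted p = 0.828 and adjusted p = 0.201). Tubule and ureteric epithelium markers differed between the gates: 8 of 10 were lower in P0 progenitors than in the GFP-negative P0 cells, against 8.41% of all genes called. Their summed scaled intensity was 4.29 to 5.70 against 83.3 to 86.3. Among the 10, Cdh1 and Ret entered the test through the GFP-negative cells alone, so their differences are a description. The part of these epithelial markers in the Prom1 values was not tested.

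Ncam1 encodes a homophilic adhesion molecule of the immunoglobulin superfamily. With the representing probe, at base 6856, it read 5.84 and 4.41 in the 19-day culture, 4.999 and 5.10 in P0 progenitors, 4.38 and 3.92 in the 8-day culture, 4.17 and 3.89 in P0 non-progenitors, and 3.15 and 4.38 in E11.5 progenitors. The highest group and P0 progenitors overlapped each other, as did the 3 lowest groups in turn. None of its 5 changes passed: they ran from 0.38 ± 0.52 in the 8-day culture (limma adjusted p = 0.760) to 1.36 ± 0.52 in the 19-day culture (adjusted p = 0.122), both against E11.5 progenitors.

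The probe at base 2012 gave a narrower picture with the same order at birth. It read 2.15 and 2.87 in P0 progenitors, 2.28 and 1.46 in the 19-day culture, 0.56 and 0.92 in E11.5 progenitors, 0.51 and 0.82 in the 8-day culture, and 0.69 and 0.34 in P0 non-progenitors. P0 progenitors exceeded the GFP-negative cells by 2.00 ± 0.37 (3.99-fold; limma adjusted p = 0.0208) and higher than E11.5 progenitors by 1.77 ± 0.37 (3.41-fold; adjusted p = 0.0486). The gate difference was lost without any 1 of the 4 arrays (adjusted p from 0.0547 to 0.137), as was the stage difference (adjusted p from 0.0831 to 0.253), which was kept in 2 of 13 alternatives. Over 10 arrays this probe and the one at base 6856 had a Pearson r of 0.82.

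Near background was the probe at base 4688, except in the oldest culture. It read -2.79 and -3.26 in the 19-day culture, both well above background, and -6.18 and -6.12 in E11.5 progenitors, neither well above it. The remaining arrays read -5.16 and -6.16 in the 8-day culture, -6.31 and -4.94 in P0 progenitors, and -3.88 and -5.98 in P0 non-progenitors, and of these only -3.88 was well above background. Set against the lowest signal well above background on the E11.5 arrays, this probe was 2.71-fold higher in the 19-day culture. That fold is a description only, since the probe passed the filter through the 19-day culture alone, and it did not hold after normexp background correction. The log2 difference was 3.12 as measured, 0.21 after normexp background correction and 4.13 with the slide as a block.

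**Figure D2:**
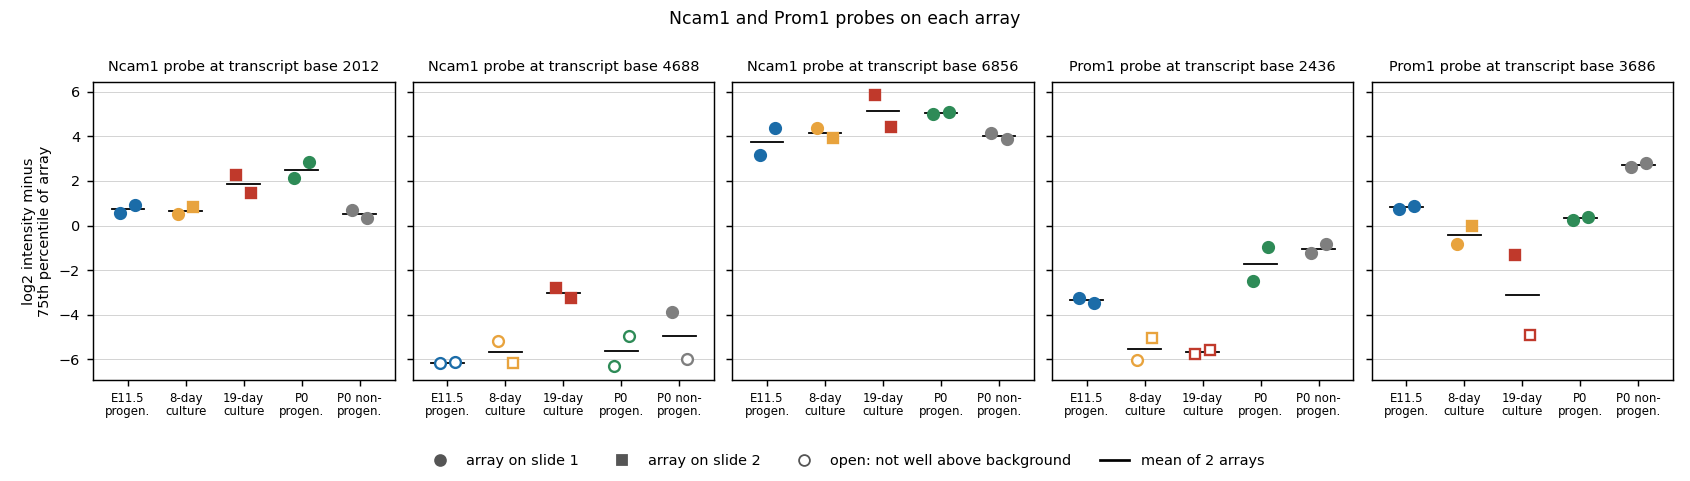
The 3 Ncam1 probes and the 2 Prom1 probes on each array, as log2 intensity minus the array's 75th percentile (symbols as in the plot of all genes by array). The Ncam1 probe at base 4688 is above background on both arrays only in the 19-day culture, and the Prom1 probe at base 2436 is not well above background on any culture array.

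Ncam1 carries polysialic acid, added by St8sia2 and St8sia4, and works with relatives of the L1 and contactin families and with the receptors Fgfr1 and Gfra1. Of 13 genes in that list, 12 were tested. Between the 19-day culture and E11.5 progenitors 0 were higher, 2 were lower and 10 did not pass, against 16.8% of all genes called, so that the list's share is near that of all genes. The list's median was -0.04 against 0.01 over all genes. Gfra1, a co-receptor of GDNF that also binds NCAM1, was at least 44.3-fold lower in the 19-day culture (limma adjusted p = 0.000395), and Chl1, an L1 relative, at least 17.8-fold lower; Chl1 entered the test through E11.5 progenitors alone, so its difference is a description. At 8 days Gfra1 fell by 3.94 on the log2 scale against E11.5 progenitors (SE 0.48, adjusted p = 0.00853). At birth Nrcam was at least 15.8-fold lower in P0 progenitors than in the GFP-negative P0 cells, likewise a description, since it entered the test through the GFP-negative cells alone.

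Alcam encodes an adhesion molecule of the same superfamily that binds itself and CD6. It read 1.53 and 1.08 in E11.5 progenitors, 2.66 and 2.38 in the 8-day culture, 1.34 and 1.55 in the 19-day culture, 2.44 and 2.73 in P0 progenitors, and 2.27 and 2.09 in P0 non-progenitors. The 8-day culture and P0 progenitors overlapped at the top, and the 19-day culture overlapped E11.5 progenitors at the bottom. The whole range was 3.14-fold.

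Alcam was 2.43-fold higher in P0 progenitors than in E11.5 progenitors (log2 change 1.28 ± 0.23; limma adjusted p = 0.0304). It was the only one of the 7 tested genes that passed there, against 3.97% of the 26252 genes tested, and the median change of the 7 was 0.84 against -0.12 over all genes. In the 8-day culture Alcam was 2.32-fold higher than in E11.5 progenitors (1.21 ± 0.23; limma adjusted p = 0.0337), again the only one of 7, against 4.84% of all genes. From 8 to 19 days it fell by 1.07 (SE 0.23, 2.10-fold; adjusted p = 0.0339). These calls depended on single arrays and on settings of the fit. They were kept in 7, 6 and 5 of 14 alternatives, in the order given. Without an intensity trend the first 2 calls were lost, as they were with replicate number as a block. Some of the other losses follow. The first was lost without E11.5 replicate 2 (adjusted p = 0.0853) and without either P0 progenitor array (adjusted p = 0.116 and adjusted p = 0.191). The second was lost without E11.5 replicate 2 (adjusted p = 0.0947) or either 8-day array (adjusted p = 0.117 and adjusted p = 0.0679), with the slide as a block (adjusted p = 0.0668) and in the compared groups alone (adjusted p = 0.206). The third was lost without any 1 of its 4 arrays (adjusted p from 0.0723 to 0.155).

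Some skeletal muscle markers rose and fell with Alcam in culture, while others did not. Of 6 such markers, 3 were higher in the 8-day culture than in E11.5 progenitors (1 with the slide as a block), against 4.84% of all genes called. In the 19-day against the 8-day culture 2 were lower (1 with the slide as a block), against 8.09% of all genes. The largest rises at 8 days were those of Actc1, Tnnt2 and Myl1, which entered the test through the 8-day culture alone. Their differences are therefore a description, and so are the counts of these muscle markers called. The summed scaled intensity of the 6 markers was 7.59 to 9.04 in E11.5 progenitors, 23.8 to 31.1 in the 8-day culture and 8.64 to 14.9 in the 19-day culture. In P0 progenitors, where the Alcam level overlapped the 8-day culture, the sum was 3.76 to 4.48. Des overlapped between the cultures, at 3.00 and 2.81 in the 8-day culture and 2.05 and 3.28 in the 19-day culture. Myl1, a myosin light chain, read 3.03 and 3.65 in the 8-day culture and was not well above background in E11.5 progenitors. Their part in the Alcam values was not tested.

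Among 11 partners and relatives of ALCAM, CD24 and THY1, 9 were tested. In P0 progenitors against E11.5 progenitors 1 was higher, 0 were lower and 8 did not pass, against 3.97% of all genes called: Bcam, a laminin receptor, was higher by 4.36 ± 0.43 (20.5-fold; limma adjusted p = 0.00437). After 19 days 1 was higher and 2 were lower than in E11.5 progenitors (0 and 1 with the slide as a block), against 16.8% of all genes. Cd6, known as the ALCAM ligand of T cells, fell by 1.86 there (SE 0.31, adjusted p = 0.00726), and Itgav, an integrin subunit that pairs to bind THY1, rose by 1.90 ± 0.29 (adjusted p = 0.00521).

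Cd44 encodes the main receptor for hyaluronan and has many splice forms. The probe at base 5494, which represents the gene because it was brightest and which shares runs of up to 29 bases with 27 probes of other names, read 5.21 and 4.30 in the 19-day culture, 5.14 and 4.27 in the 8-day culture, 4.64 and 4.42 in P0 progenitors, 4.12 and 3.69 in E11.5 progenitors, and 4.13 and 3.59 in P0 non-progenitors. It varied by 3.08-fold over the 10 arrays, neighbouring groups mostly overlapped, and none of its 5 changes passed. The part of the shared runs in these levels was not tested. The largest change was 0.85 ± 0.39 in 19-day culture against E11.5 progenitors (limma adjusted p = 0.191).

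Another result came from the probe at base 2614. It read -4.21 and -3.57 in E11.5 progenitors, the first not well above background, -1.06 and -0.60 in the 8-day culture, 1.43 and 0.75 in the 19-day culture, 1.21 and 1.06 in P0 progenitors, and -0.44 and -1.87 in P0 non-progenitors. No group overlapped E11.5 progenitors, which were lowest, and the 19-day culture overlapped P0 progenitors at the top. Its range over the arrays was 5.64 log2 units.

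With each probe fitted alone, the probe at base 2614 was higher than in E11.5 progenitors in P0 progenitors by 5.02 ± 0.52 (32.5-fold; limma adjusted p = 0.00624), in the 19-day culture by 4.98 ± 0.52 (31.5-fold; adjusted p = 0.00141) and in the 8-day culture by 3.06 ± 0.52 (8.32-fold; adjusted p = 0.0254). P0 progenitors were also higher than P0 non-progenitors, by 2.29 ± 0.52 (4.88-fold; adjusted p = 0.0423). The step from 8 to 19 days, 1.92 ± 0.52, did not pass (adjusted p = 0.0748). Of all probes tested, 3.47%, 15.4%, 4.48%, 7.09% and 7.15% were called in these 5 comparisons in the same order. The 19-day call was kept in 10 of 11 alternatives and lost with the slide as a block (4.52, limma adjusted p = 0.0507). Over the alternatives the 19-day change ran from 2.76 to 5.32 and the stage change, P0 against E11.5 progenitors, from 2.76 to 5.35. The stage call was kept in 10 of 12 and lost without P0 progenitors replicate 1 (adjusted p = 0.0610) or replicate 2 (adjusted p = 0.0562). The 8-day call was kept in 5 of 12 and lost without E11.5 replicate 1 (adjusted p = 0.0806) or either 8-day array (adjusted p = 0.0735 and adjusted p = 0.0903), and after normexp background correction the change was 1.21 (adjusted p = 0.122). The gate call was kept in 3 of 12 and lost without P0 progenitors replicate 1 (adjusted p = 0.197) or replicate 2 (adjusted p = 0.173) and without P0 non-progenitors replicate 2 (adjusted p = 0.172).

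Over the 10 arrays this probe and the one at base 5494 had a Pearson r of 0.59. The probes at bases 1777 and 1965 gave no further answer. The first was well above background on 1 array, P0 non-progenitors replicate 1, at -3.88. The second was well above background on 1 array of each group and stayed between -5.34 and -3.28.

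**Figure D3:**
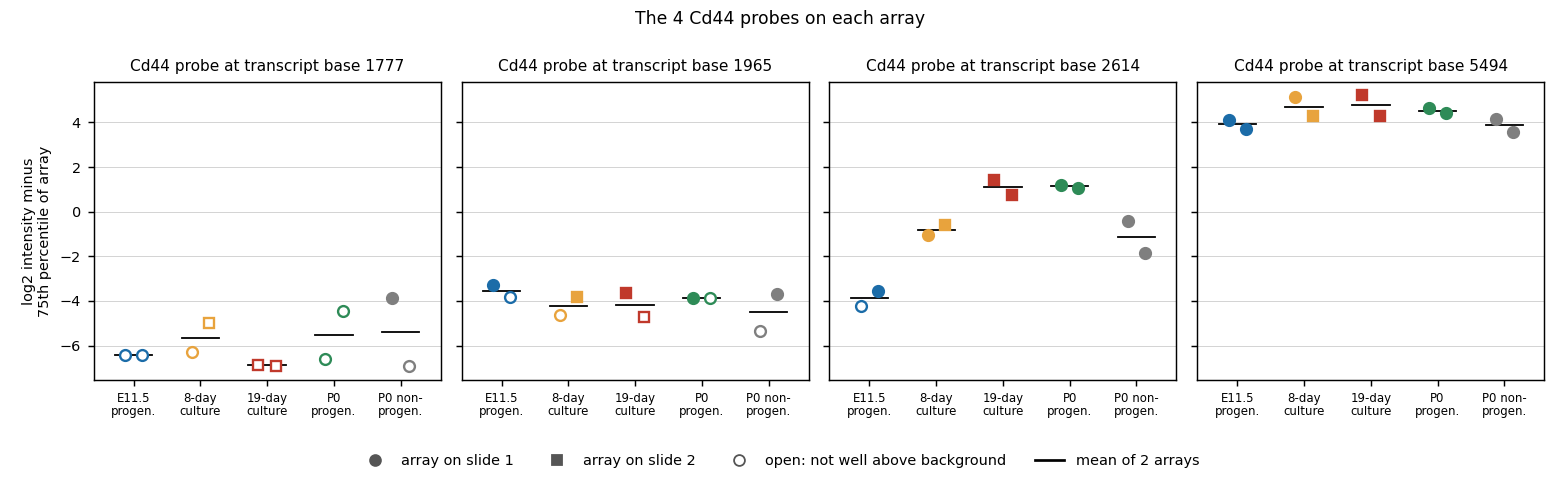
The 4 Cd44 probes on each array, as log2 intensity minus the array's 75th percentile (open symbols: not well above background). The probe at base 2614 climbs from -4.21 and -3.57 in E11.5 progenitors to 1.43 and 0.75 in 19-day culture, while the probe at base 5494 stays between 3.59 and 5.21.

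The list of CD44 ligands, linkers and splicing factors had 16 members, all tested. At birth 2 were higher and 3 lower in P0 progenitors than in the GFP-negative P0 cells, where 8.41% of all genes were called. Has2, a hyaluronan synthase, was higher by 4.23 ± 0.69 (limma adjusted p = 0.0118) and the proteoglycan Vcan by 3.14 ± 0.31 (adjusted p = 0.00203), while Msn, which links CD44 to actin, fell by 2.34 (SE 0.16, adjusted p = 0.000842). Against E11.5 progenitors, 2 were higher and 2 lower after 19 days, where 16.8% of all genes were called. Spp1, osteopontin, was at least 83.3-fold higher (adjusted p = 0.00571) and Msn was higher by 1.41 ± 0.16 (adjusted p = 0.00168). Has2 fell by 5.07 (SE 0.69, 33.6-fold; adjusted p = 0.00352) and Rdx, a relative of Msn, by 1.32 (SE 0.23, adjusted p = 0.00945). The splicing factors Esrp1 and Esrp2 did not pass in either culture.

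Thy1 encodes a small immunoglobulin-like protein with a lipid anchor. It read 2.71 and 2.80 in P0 non-progenitors, 1.70 and 3.25 in the 19-day culture, -3.80 and -0.23 in the 8-day culture, -2.21 and -3.26 in P0 progenitors, and -3.29 and -3.84 in E11.5 progenitors. P0 non-progenitors and the 19-day culture overlapped each other and lay above the other 3 groups. The 8-day arrays stood far apart, replicate 1 being at the level of E11.5 progenitors.

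At birth, Thy1 was 44.8-fold lower in P0 progenitors than in the GFP-negative P0 cells (log2 change -5.49 ± 1.08; limma adjusted p = 0.0226). With Ly6a it was 1 of 2 genes called among the 7 tested, both lower, and 8.41% of all genes were called there in either direction. The median change of the 7 was 0.09 against 0.10 over all genes. The call was lost without any 1 of the 4 arrays (adjusted p from 0.0862 to 0.139), with a change between -6.01 and -4.96, and was kept in the 10 other alternatives. Against E11.5 progenitors P0 progenitors differed by 0.84 ± 1.08 (adjusted p = 0.725).

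After 19 days Thy1 was 65.7-fold higher than in E11.5 progenitors (6.04 ± 1.08; limma adjusted p = 0.00965). With 4 of 7 genes called, 2 in each direction, against 16.8% of all genes, this was the comparison with the most calls among the 5. The median change of the 7 was 0.85 against 0.01 over all genes. With the slide as a block, which leaves 8-day culture replicate 1 and replicate 2 to tell slide from group, the Thy1 change was 2.47 (adjusted p = 0.227). It was also lost without 19-day replicate 2 (5.26, adjusted p = 0.0509). From 8 to 19 days Thy1 rose by 4.49 ± 1.08 (22.4-fold; adjusted p = 0.0468), 1 of 3 genes called against 8.09% of all genes, and this was kept in 4 of 14 alternatives. Without 8-day replicate 1 the rise was 2.70 (adjusted p = 0.0865), and without 19-day replicate 1 and replicate 2 it was 5.26 (adjusted p = 0.0957) and 3.71 (adjusted p = 0.178). In the 8-day culture against E11.5 progenitors the change was 1.55 ± 1.08 (adjusted p = 0.493), and on slide 1 arrays alone it was -0.23.

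Ly6a encodes a lipid-anchored protein of the Ly6 family. It read 4.30 and 4.43 in P0 non-progenitors, -0.85 and 2.48 in the 19-day culture, -0.03 and -0.34 in P0 progenitors, -1.73 and -3.49 in the 8-day culture, and -4.18 and -3.92 in E11.5 progenitors, the first of these not well above background. P0 non-progenitors lay above every other array, the 19-day culture overlapped P0 progenitors, and E11.5 progenitors were lowest without overlap.

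Ly6a was 23.5-fold lower in P0 progenitors than in the GFP-negative P0 cells (log2 change -4.55 ± 1.00; limma adjusted p = 0.0339). The call was kept in 7 of 13 alternatives, and lost without any 1 of the 4 arrays (adjusted p from 0.136 to 0.165) and without an intensity trend (adjusted p = 0.0614), among others. P0 progenitors read higher than E11.5 progenitors by 3.87 ± 1.00, which did not pass (adjusted p = 0.0859). After 19 days Ly6a was higher than in E11.5 progenitors by 4.86 ± 1.00 (29.1-fold; adjusted p = 0.0165). The call was lost without E11.5 replicate 1 (adjusted p = 0.0610) or replicate 2 (adjusted p = 0.0514), with the slide as a block (6.63, adjusted p = 0.0771), in the compared groups alone (adjusted p = 0.113) and after normexp background correction (2.70, adjusted p = 0.0531). From 8 to 19 days the change of 3.42 ± 1.00 did not pass (adjusted p = 0.0882).

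**Figure D4:**
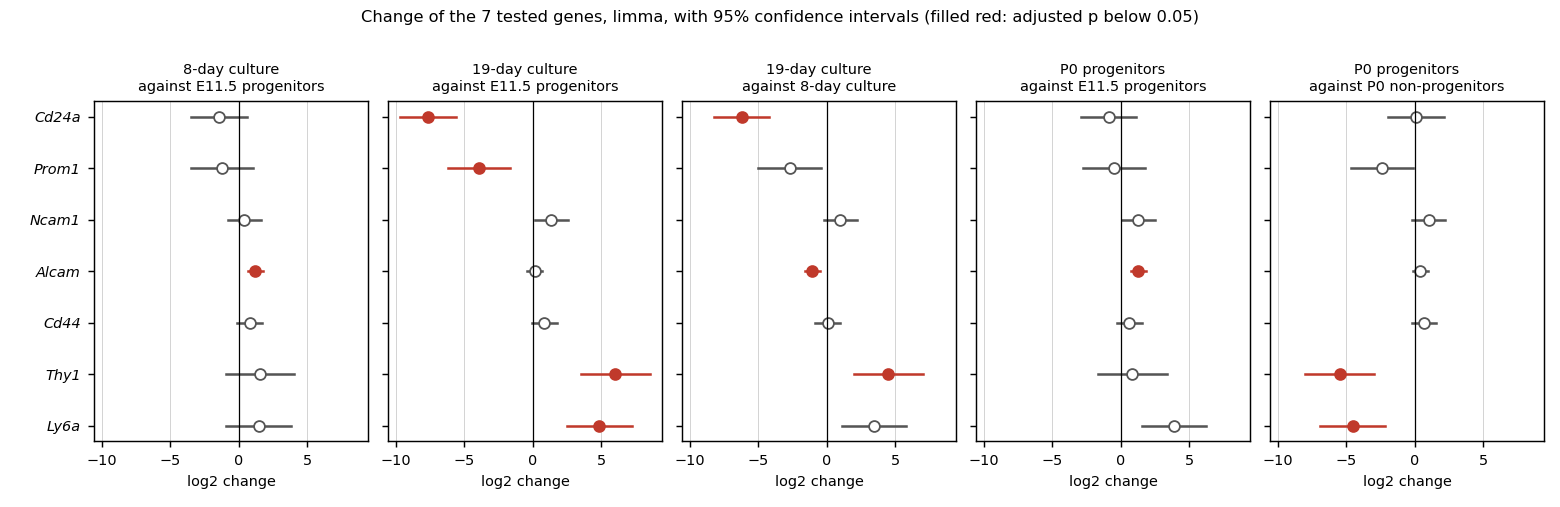
Log2 change of the 7 tested genes in each of the 5 comparisons, with 95% confidence intervals from limma (filled red: adjusted p below 0.05). The 19-day culture against E11.5 progenitors has 4 called genes, Cd24a and Prom1 lower and Thy1 and Ly6a higher, and the gates at birth differ in Thy1 and Ly6a.

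Markers of stroma and mural cells mostly differed in the same direction as Thy1 and Ly6a between the gates and after 19 days. Of 9 such markers, 7 were lower in P0 progenitors than in the GFP-negative P0 cells, where 8.41% of all genes were called. Their summed scaled intensity was 6.35 to 8.39 against 104.9 to 117.7. Of the same markers, 7 of 9 were higher in the 19-day culture than in E11.5 progenitors and 1, Foxd1, was lower, against 16.8% of all genes called. The sum went from 12.97 to 16.88 up to 160.8 to 224.3. The brightest marker was Foxd1 in E11.5 progenitors (3.83 and 3.20) and Col3a1 in both cultures, so that these sums rest on different markers. In the 8-day culture the sum was 15.3 to 24.5. There 4 markers were already higher and 1 lower than in E11.5 progenitors, against 4.84% of all genes, while neither Thy1 nor Ly6a passed. In both cultures the sum was higher in replicate 1 (24.5 against 15.3, and 224.3 against 160.8). So was the mean log2 level of the list (-1.22 against -1.63, and 1.98 against 1.52). Single markers went both ways in the 19-day culture: Pdgfra, Pdgfrb and Lum were higher in replicate 2, and the others in replicate 1. Thy1 was higher in replicate 2 of both cultures, and Ly6a in replicate 2 of the 19-day culture only. Col1a1, which encodes a chain of fibrillar collagen, read -1.002 and -1.51 in E11.5 progenitors, 2.10 and 1.90 in the 8-day culture and 6.37 and 5.64 in the 19-day culture. Pdgfra, a receptor of stromal cells, was not well above background on any E11.5 or P0 progenitor array. The part of stromal cells in the Thy1 and Ly6a values was not tested.

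Endothelial markers moved with both genes at birth. Of 8 markers, 7 were lower in P0 progenitors than in the GFP-negative P0 cells, where 8.41% of all genes were called. Their sum was 4.61 to 4.94 against 40.5 to 45.4. Between the 19-day culture and E11.5 progenitors limma called 0 of 8, and 0 had an unadjusted p below 0.05. The sum of the list was 6.29 to 6.96 in the 19-day culture against 4.89 to 6.64 in E11.5 progenitors, and 5 of 8 markers were well above background on each 19-day array. Kdr was the brightest marker of the list in both groups, at 2.50 and 2.13 in E11.5 progenitors, so that these sums mostly reflect Kdr. Cdh5, the cadherin of endothelial junctions, and Tie1 were not well above background on any culture array, while Kdr read 2.64 and 2.28, Cd34 -1.16 and -0.76, Pecam1 -3.14 and -2.97 and Emcn -3.75 and -0.72 in the 19-day culture, all well above it. Between the 19-day arrays Emcn was higher in replicate 2 and Kdr in replicate 1. The list's sum was 6.96 in replicate 1 and 6.29 in replicate 2, and its mean log2 level was -3.48 and -2.95. At birth Cdh5, Esam, Tek and Tie1 entered the test through the GFP-negative cells alone, so that counts that include them are a description. The part of endothelial cells in the Thy1 and Ly6a values was not tested.

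**Figure D5:**
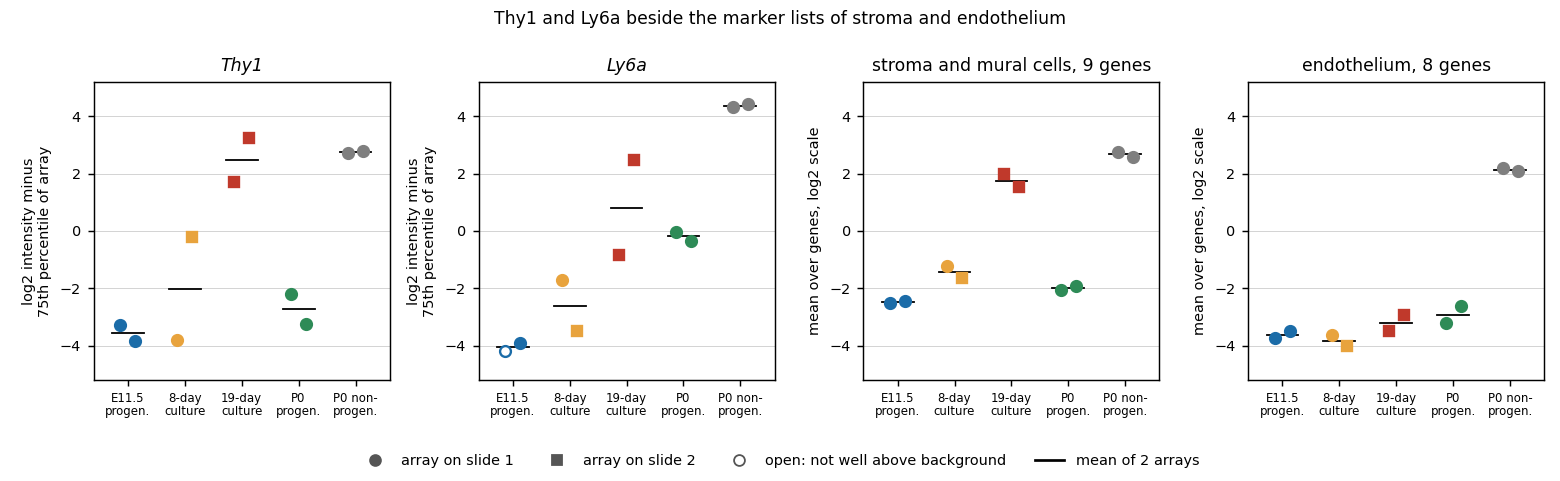
Thy1 and Ly6a by array beside the mean log2 level of 9 stroma and mural cell markers and of 8 endothelial markers (lines: mean of 2 arrays; squares: slide 2). The stromal mean is highest in P0 non-progenitors and 19-day culture, as Thy1 is, while the endothelial mean is raised in P0 non-progenitors and is at most -2.62 in the other groups.

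Ly6a sits in a family of lipid-anchored Ly6 and uPAR proteins, of which 16 others were listed and 13 tested. At birth 4 were lower in P0 progenitors and 0 were higher (2 lower with the slide as a block), against 8.41% of all genes called. They were Gpihbp1, the capillary carrier of lipoprotein lipase (-3.16 ± 0.32; limma adjusted p = 0.00228), Ly6c1 (-4.73 ± 0.98; adjusted p = 0.0271), Ly6f (-3.43 ± 0.75; adjusted p = 0.0323) and Ly6g, which was at least 13.6-fold lower and entered the test through the GFP-negative cells alone, so that its difference is a description. In the 19-day culture against E11.5 progenitors 5 were higher and 0 were lower, against 16.8% of all genes called, and the list's median was 1.68 against 0.01 over all genes. Lynx1 was at least 42.1-fold higher (adjusted p = 0.00362), Ly6e rose by 4.16 ± 0.90 (adjusted p = 0.0198), Ly6h by 1.68 ± 0.45 (adjusted p = 0.0436), and Ly6f was at least 4.50-fold higher (adjusted p = 0.0231). Ly6c1 was called higher too (adjusted p = 0.00397), with a probe not well above background on either E11.5 array, so that no fold is given. The count of 5 was 4 after quantile normalization, 3 after normexp background correction and 2 with the slide as a block. Ly6h was named after its values were seen. The other 8, Ly6d and Ly6i among them, did not pass in that comparison.

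Ly6c1, the gene whose levels were most like those of Ly6a, read 5.61 and 5.46 in P0 non-progenitors, 0.77 and 3.60 in the 19-day culture, 0.74 and 0.87 in P0 progenitors, -0.91 and -3.12 in the 8-day culture, and -5.27 and -4.31 in E11.5 progenitors. The 19-day arrays differed in the same direction for both genes, replicate 2 being higher. Their Pearson r over 10 arrays was 0.99. The Ly6a probe matched the probes of Ly6c1 at no more than 25 of 60 bases without gaps, and it shared no run of 16 bases with a probe of any other name. Only probe sequences were compared, so whether the Ly6a probe also binds the Ly6c1 transcript was not tested.

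Nt5e encodes the ecto-enzyme that makes adenosine from AMP at the cell surface. Its only probe read -4.52 and -6.33 in E11.5 progenitors, -6.20 and -6.50 in the 8-day culture, -6.79 and -6.85 in the 19-day culture, -5.63 and -4.74 in P0 progenitors, and -6.54 and -2.95 in P0 non-progenitors. It was well above background on 1 of 10 arrays, P0 non-progenitors replicate 2, and was not tested. No difference between groups was therefore detectable with this probe.

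Other genes of the extracellular ATP and adenosine pathway were measured: 14 of 16 were tested. In P0 progenitors against E11.5 progenitors 3 were higher and 0 were lower, against 3.97% of all genes called. Alpl, an alkaline phosphatase that also makes adenosine, rose by 4.69 ± 0.86 (limma adjusted p = 0.0311), the peptidase Dpp4 was at least 4.57-fold higher (adjusted p = 0.0315), and the receptor Adora1 at least 2.78-fold higher (adjusted p = 0.0490). After 19 days 2 were higher than in E11.5 progenitors and 0 were lower: Enpp1, which cleaves ATP, by 3.58 ± 0.84 (adjusted p = 0.0261) and the receptor Adora2b by 4.26 ± 1.18 (adjusted p = 0.0465). Neither passed with the slide as a block, and 16.8% of all genes were called there, so that the list's share is near that of all genes. At birth Dpp4 fell by 5.31 in P0 progenitors against P0 non-progenitors (SE 0.49, 39.6-fold; adjusted p = 0.00165), and Entpd5 by 1.79 (SE 0.43, adjusted p = 0.0444).

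The 8 genes were also set beside 22 other surface proteins used to sort kidney or mesenchymal progenitors, all of which were tested. At birth 1 was higher in P0 progenitors and 8 were lower, with a median of -1.82 against 0.10 over all genes, of which 8.41% were called. Pdgfra was at least 46.5-fold lower (limma adjusted p = 0.00200), Cd200 at least 20.1-fold lower (adjusted p = 0.00228), Eng, the endoglin of endothelium and stromal cells, fell by 2.01 (SE 0.32, adjusted p = 0.0115), and Itgav by 1.64 (SE 0.29, adjusted p = 0.0153). Against E11.5 progenitors, 6 were higher and 4 lower in the 19-day culture, with a median of 1.33 against 0.01 over all genes, of which 16.8% were called. Pdgfra was at least 79.1-fold higher (adjusted p = 0.000467) and Itgb1, the common integrin beta chain, rose by 1.54 ± 0.23 (adjusted p = 0.00504). Acvr2b, an activin receptor used to sort human nephron progenitors, fell by 5.95 (SE 0.50, 61.6-fold; adjusted p = 0.000584), and Ngfr fell by 4.07 (SE 0.53, 16.8-fold; adjusted p = 0.00299). With the slide as a block 4 were higher and 1 lower. At 8 days 2 were higher and 1 was lower, against 4.84% of all genes called. Cd9 rose by 2.20 ± 0.46 (limma adjusted p = 0.0405) and Pdgfra was at least 2.37-fold higher (adjusted p = 0.0435). Acvr2b fell by 2.25 (SE 0.50, adjusted p = 0.0488). With the slide as a block 0 of the 22 passed at 8 days. In P0 progenitors against E11.5 progenitors 1 was higher, Cd9 (2.40 ± 0.46, limma adjusted p = 0.0341). There 3.97% of all genes were called, so that the list's share is near that of all genes.

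The genes most like each marker over the 10 arrays were taken from 17372 tested genes with a RefSeq symbol, by Pearson r of the representing probes. The 10 arrays fall into 5 groups, so that r mostly reflects the order of the groups. Cd24a was nearest to Purg, Sfrp2 and Tspan13, each at 0.98. Thy1 was nearest to Ramp3 (0.97), Gng11 (0.97) and Ano9 (0.96), and Ly6a to Ly6c1 (0.99), Septin4 (0.98) and Ccdc3 (0.96). Prom1 was nearest to Itga9 (0.95), Clcn3 (0.94) and 4833439L19Rik (0.93), Ncam1 to Sbsn (0.94), Smarca2 (0.92) and Cyp2b13 (0.91), Alcam to Pcdhb3 (0.93), Chek2 (0.92) and Sgip1 (0.91), and the Cd44 probe at base 5494 to Sec23a (0.93), Sars (0.91) and Saa1 (0.91). Among the markers themselves Thy1 and Ly6a had the highest r, 0.77, and Cd24a and Ncam1 the lowest, -0.63.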

How the data were processed

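Per the labels, RNA of the sorted cells went through whole-transcriptome amplification (Ovation Pico WTA) before Cy3 labelling. The deposited intensities are background-subtracted processed signals of Agilent Feature Extraction 11.5.1.1 (named in the file headers and the submitters' processing notes), which the authors had not normalized between arrays. From log2 of these intensities the array's 75th percentile (59305 non-control spots) was subtracted, and spots of a probe were averaged. The files' names were updated through RefSeq by accession (28026 probes), current symbol (3418) or synonym (295), and positions come from the array's own design (mm9). One deposited file had 62 names altered, none of these 14 probes, so names were read from another array. A gene was represented by its brightest probe on average. It entered the test when, in at least 1 group, both arrays flagged the probe well above background, which left 26252 genes and, with each probe alone, 39818 probes.

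The comparisons used limma 3.58.1 in R 4.3.3 with 1 mean per group over 10 arrays, an intensity trend, 5 residual and 2.49 prior degrees of freedom, 2-sided p-values and Benjamini-Hochberg adjustment within each comparison at 0.05. Where no array of 1 group was well above background, the fold is a lower bound against the lowest signal well above background. That signal is the lowest of any probe on the array, -4.73 on E11.5 replicate 1. Some brighter probes were still not well above background, such as Actc1 at -3.84 on that array. Folds given as at least therefore hold only against that signal, on the main scale. The steps were tested on simulated data. The markers and gene lists were chosen with earlier results of these data known. Named genes are the 8 markers, Six2 and Cited1, per list and comparison up to 4 genes that passed with the smallest adjusted p and up to 2 that did not, and the 3 genes nearest to each marker. Marker-list genes named singly were chosen after their values were seen. The sequence of 1 Cd44 probe is not reported here.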

Additional observations from a re-analysis of the deposited data

How the results depend on the processing

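The count of markers called was 2 between the gates at birth, 1 in P0 progenitors and 1 in the 8-day culture against E11.5 progenitors, 4 in the 19-day culture against E11.5 progenitors and 3 from 8 to 19 days. Under the alternatives it moved as follows (limma). Between the gates it was 1 with a filter on all arrays, without an intensity trend and with replicate number as a block. It was 3 there after normexp background correction, with the mean of a gene's probes and on slide 1 arrays alone. In the compared groups alone and with every probe fitted on its own it was 4. In P0 progenitors against E11.5 progenitors it was 0 without a trend and with the replicate block, 2 with the mean of a gene's probes, in the compared groups alone and on slide 1 arrays alone, and 3 with every probe. In the 8-day culture it was 0 without a trend, with the replicate block, with the slide block and in the compared groups alone, 2 with the mean of probes and with every probe, and 3 on slide 1 arrays alone. In the 19-day culture against E11.5 progenitors it was 6 with the mean of probes, 5 with the replicate block, 3 after normexp background correction, 2 with the filter on all arrays and 1 with the slide block and in the compared groups alone. From 8 to 19 days it was 2 after quantile normalization and without a filter, 1 without a trend and with the replicate or slide block, and 0 in the compared groups alone and on slide 2 arrays alone. Leaving out 1 array gave 0 to 0 between the gates, 0 to 1 in the next 2 comparisons, 2 to 4 and 1 to 3. Where limma called 0 markers, the number with an unadjusted p below 0.05 was 2 without a trend and 3 with the replicate block in P0 against E11.5 progenitors, 1, 2, 2 and 3 in the 8-day culture in the order given, 3 in each fit from 8 to 19 days, and 1 to 3 without 1 array. With the replicate block the Ly6a difference between the gates had adjusted p = 0.0535. The fits to 1 slide were added after seeing the data. The replicate numbers did not pair the arrays (correlation of deviations from -0.01 to 0.03 over genes). Values that changed sign had not passed in the comparison named. For whole genes these were Cd24a between the gates (-0.180 after quantile normalization, -0.0268 to 0.213 without 1 array), Prom1 in P0 against E11.5 progenitors (0.562 with the mean of probes), Thy1 in the 8-day culture (-0.234 with the slide block and on slide 1 alone, -0.234 to 3.34 without 1 array), Ncam1 there (-0.229 to 0.995), Alcam in the 19-day culture against E11.5 progenitors (-0.0846 to 0.369) and Cd44 from 8 to 19 days (-0.399 to 0.509). For single probes these were, after normexp correction, the Ncam1 probe at base 4688 (0.0933 between the gates, and against E11.5 progenitors -0.0014 in P0 progenitors and -0.0430 in the 8-day culture), which without 1 array gave -1.75 to 0.353, -0.163 to 1.21 and -0.0118 to 0.994. The Ncam1 probe at base 2012 gave -0.251 to 0.107 in the 8-day culture, and the Prom1 probe at base 2436 gave -1.45 to 0.0654 between the gates and -0.641 to 0.340 from 8 to 19 days. The number of all genes called in these 5 comparisons, 2209, 1042, 1270, 4422 and 2125, became 1274, 455, 544, 3359 and 761 without a trend, and 2841, 445, 0, 1292 and 0 in the compared groups alone. With the slide block it was 634 in the 8-day culture and 1495 in the 19-day culture, and with the filter on all arrays it was 1446 between the gates. Where it was 0, limma gave 3957 and 4991 genes with an unadjusted p below 0.05. On 1 slide it was 696 in the 8-day culture and 0 from 8 to 19 days (4775 at an unadjusted p below 0.05). Without 1 array it was 628 to 869, 118 to 873, 370 to 896, 2376 to 3397 and 885 to 1764. Having 2 arrays a group, and signals near background as for Nt5e, limits what could be detected.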
